A study of Mus musculus with 12 samples.

Results

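Molecular chaperones and chaperonins are the proteins that hold, fold and unfold other proteins. The genes described here were taken by symbol. The symbols are those of the HSP70 and HSP110 (Hspa, Hsph), HSP90 (Hsp90), small heat shock (Hspb), mitochondrial chaperonin (Hspd, Hspe), J-domain (Dnaja, Dnajb, Dnajc) and CCT (Cct, Tcp1) families. Of the 21783 genes in the table, 77 carried such a name, and 75 of these had values in all 6 pools of hearts. Hspa1a and Dnajb13 were blank in at least 1 pool and were left out. Of the 75, 2 (Hspb11 and Hspbap1) match by symbol but belong to no chaperone family. Another, Hspbp1, is an exchange factor for HSP70 and no small heat shock protein. They are kept in the counts and medians of chaperone genes below. By textbook location, 44 of the 75 work in the cytosol and nucleus, 13 in or on the endoplasmic reticulum (ER) and 8 in the mitochondrion, and 10 work elsewhere or have no location of which one can be sure.

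The hearts came from mouse embryos of embryonic day 10.5 labelled female, and each pool joined 20 hearts of 1 genotype. Ddx3x CM-KO hearts (3 pools) are labelled as deleted for Ddx3x in cardiomyocytes through Tnnt2-Cre, and WT hearts (3 pools) were Ddx3x fl/fl with no Cre named in their labels. Each pool gave a library of total RNA and a library of ribosome-protected footprints (RPF), the pieces of mRNA covered by ribosomes, so that there were 12 libraries. Ddx3x is an X-linked gene for a DEAD-box RNA helicase that takes part in starting translation. The Tnnt2 promoter is active in cardiomyocytes, whereas a pool holds whole hearts with endocardial, epicardial, cushion and blood cells. In such bulk samples fewer cells of a type and less RNA per cell cannot be told apart.

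Chaperones work in relays. HSP70 proteins bind short greasy stretches of unfolded chains. J-domain proteins deliver the clients and speed ATP hydrolysis, and exchange factors such as the HSP110 proteins reset the cycle. HSP90 takes over late, near-native clients. The ring-shaped CCT complex, built from 8 related subunits, folds actin and tubulin among others. Hspa5 (BiP) and Hsp90b1 (GRP94) serve the ER, while Hspa9 (mortalin) and the Hspd1-Hspe1 chamber serve the mitochondrial matrix. Cardiac muscle is rich in actin, a main client of CCT.

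Total counts (M, 1000000 counts) ran from 15.5 to 17.0 M in CM-KO and from 14.7 to 19.9 M in WT for RNA, and from 7.74 to 14.3 M in CM-KO and 7.31 to 11.4 M in WT for footprints. Levels below are CPM, a gene's share of the counts scaled to 1000000, after TMM scaling within an assay. The ratio of footprint CPM to RNA CPM in a pool stands for ribosome occupancy. Ddx3x RNA lay at 281, 216 and 221 CPM in the CM-KO pools, against 294, 304 and 311 CPM in the WT pools (log2 fold change -0.34, edgeR adjusted p = 0.0883). In the authors' deposited comparison the RNA change of Ddx3x was -0.35, at an adjusted p under 0.05. Its footprints changed by -0.26 (edgeR adjusted p = 0.350). CM-KO pools 1 and 2 held 106 and 64 RNA counts of the Y-linked gene Ddx3y, whereas the other 4 pools held at most 4. Uty, also Y-linked, had 174, 108 and 11 RNA counts in CM-KO pools 1, 2 and 3 and was blank in WT. Xist, a female marker, lay at 401, 287 and 338 CPM of RNA in CM-KO and 345, 319 and 411 CPM in WT. The Y-linked reads go against an all-female label of CM-KO pools 1 and 2, and the make-up of the pools was not tested. Calls are therefore also given without these 2, named below as the pools with Y-linked reads. That fit holds 1 CM-KO pool against 3 WT pools, so the spread comes from WT alone, the lone pool is assumed to vary alike, and a lost call there cannot be laid to the 2 pools themselves. The summed RNA of 6 erythroid markers was 7154 to 8656 CPM in CM-KO and 5005 to 8163 CPM in WT, with 2 of the 6 called higher in CM-KO and none at 0 in any pool. The summed RNA of 7 cardiomyocyte markers was 13045 to 14367 CPM in CM-KO, above the 11350 to 12458 CPM in WT. Of the 7, 2 were called higher, 3 lay above a log2 fold change of 0 and none was at 0 in any pool. Their footprints summed to 18205 to 22089 CPM in CM-KO and 20933 to 22731 CPM in WT, with 2 of the 7 above a log2 fold change of 0. Footprints of the erythroid markers summed to 38039 to 51084 CPM in CM-KO and 24947 to 32936 CPM in WT, with no overlap. All 6 had an unadjusted p under 0.05 there, edgeR called 0 and DESeq2 called 6. P-values set the difference between the genotypes against the spread between these pools.

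Few chaperone genes were called. RNA rose for 5 of 75 in CM-KO (Hspa4l, Dnajc21, Dnajc5, Hspb7 and Dnajb14) and fell for none. Calls rest on edgeR's quasi-likelihood test with a Benjamini-Hochberg adjusted p below 0.05. Over all 17147 genes tested, 4.37% were called, 3.57% higher in CM-KO and 0.805% lower. Of all RNA calls 81.6% were thus higher in CM-KO, a share that was 63.6% under upper quartile scaling, where 4 chaperone genes rose and Dnajc18 fell. Footprints were called for 0 of 74 (Hspb6 had too few), against 0.23% of 15249 genes (0.0853% higher in CM-KO and 0.144% lower). DESeq2 called 0 footprint members as well, and 8 of 74 had an unadjusted p under 0.05, against 8.86% of all genes. Occupancy, the genotype by assay interaction, fell for 3 of 74 (Hspa4l, Dnajc21 and Dnajc5) and rose for none. Of 15231 genes 0.84% were called, 0.834% lower and 0.00657% higher. An unadjusted p under 0.05 was reached by 18 of 75 chaperone genes in RNA and 7 of 74 in occupancy, against 16.1% and 6.21% of all genes. The median log2 fold change over the chaperone genes was 0.01 in RNA, 0.03 in footprints and 0.04 in occupancy, and over all genes it was 0.01, -0.01 and -0.01. The median 95% confidence interval of a chaperone gene reached 0.18 to either side in RNA, 0.23 in footprints and 0.33 in occupancy on the log2 scale.

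**Figure D1:**
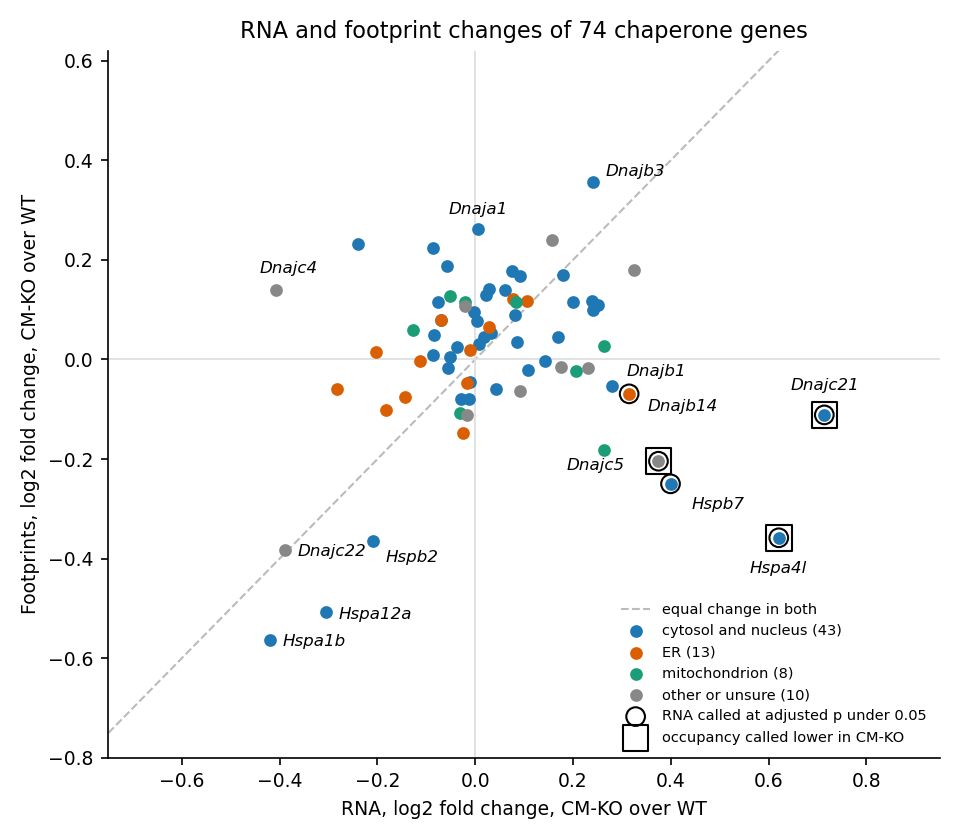
Log2 fold change (CM-KO over WT) of RNA on the x axis and of footprints on the y axis for 74 chaperone genes, 1 point a gene, coloured by compartment. The 5 ringed genes had higher RNA in CM-KO and lie below the dashed line of equal change, and the 3 boxed ones also had lower occupancy.

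Hspa4l, an HSP110-type exchange factor for HSP70 (chromosome 3, 40698643 to 40750538, plus strand, GRCm39), showed the clearest change. Its RNA stood at 66.2, 66.6 and 66.8 CPM in the CM-KO pools and at 46.9, 41.4 and 41.7 CPM in the WT pools. Its footprints stood at 36.3, 38.8 and 37.0 CPM in CM-KO, below the 50.02, 53.3 and 40.8 CPM in WT. In neither assay did the genotypes overlap, and they moved in opposite directions. The log2 fold change was 0.62 in RNA (SE 0.07, edgeR adjusted p = 0.00104) and -0.36 in footprints (SE 0.10, adjusted p = 0.307). The ratio of footprints to RNA averaged 0.561 ± 0.0184 in CM-KO and 1.11 ± 0.159 in WT (SD, n = 3 each), an occupancy change of -0.97 (SE 0.15, edgeR adjusted p = 0.00201). The WT ratio stood at percentile 72.4 of coding genes. Without CM-KO pools 1 and 2 the RNA call was lost at an adjusted p of 0.0528 and the occupancy call at 0.330, with changes of 0.63 and -0.95. The occupancy call was also lost without CM-KO pool 3 (-0.90, adjusted p = 0.187) or WT pool 2 (-0.84, adjusted p = 0.0848).

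Dnajc21, a J-protein of large ribosomal subunit maturation (chromosome 15, 10446842 to 10470696, minus strand), had 39.8, 41.5 and 47.5 CPM of RNA in CM-KO and 27.9, 26.4 and 24.5 CPM in WT. Footprints lay at 17.5, 16.2 and 16.2 CPM in CM-KO and 18.3, 19.9 and 15.9 CPM in WT. The RNA pools were apart and the footprint pools overlapped. RNA was higher by 0.71 on the log2 scale (SE 0.09, edgeR adjusted p = 0.00166), a call that held under all 16 alternative settings. The occupancy change was -0.81 (SE 0.15, adjusted p = 0.00893), from ratios of 0.391 ± 0.0495 in CM-KO and 0.686 ± 0.0572 in WT (SD, n = 3 each). The occupancy call was lost on leaving out any 1 pool other than WT pool 3, with values of -0.66 to -0.82 and adjusted p of 0.0586 to 0.469. Without CM-KO pools 1 and 2 it was -0.95 (adjusted p = 0.330). It was also lost with Afp as a covariate (adjusted p = 0.0719) or with RLE size factors (0.0763).

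Dnajc5 encodes cysteine string protein, a J-protein on secretory vesicles (chromosome 2, 181161759 to 181196926, plus strand). Its RNA was at 242, 251 and 264 CPM in CM-KO and at 206, 191 and 187 CPM in WT, and its footprints were at 64.7, 74.5 and 68.7 CPM in CM-KO and 77.6, 77.7 and 84.4 CPM in WT. As for Hspa4l, the pools separated in both assays, upward in RNA and downward in footprints. The RNA change was 0.37 (SE 0.07, edgeR adjusted p = 0.0135), the footprint change -0.20 (SE 0.08, adjusted p = 0.465) and the occupancy change -0.57 (SE 0.13, adjusted p = 0.0319). The ratio averaged 0.275 ± 0.0194 in CM-KO and 0.411 ± 0.0369 in WT (SD, n = 3 each). The RNA call was lost without CM-KO pool 2 (adjusted p = 0.0656), CM-KO pool 3 (0.0542), WT pool 2 (0.146) or both CM-KO pools with Y-linked reads (0.1105), at changes of 0.34 to 0.44. It was also lost with Afp as a covariate (0.0667), 12 libraries in one model (0.146) or the replicate block (0.0691). The occupancy call was lost on leaving out any single pool, at changes of -0.47 to -0.63, and without both CM-KO pools (-0.61, adjusted p = 0.628). It was also lost in DESeq2 (0.115), with RLE size factors (0.566), with Afp (0.266) or with no filter on low counts (0.0686).

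Hspb7 is a small heat shock protein of heart and skeletal muscle (chromosome 4, 141148090 to 141152625, plus strand) and had the most RNA of the 6 small heat shock genes. It reached 374, 480 and 421 CPM in CM-KO, against 343, 319 and 305 CPM in WT, a change of 0.40 (SE 0.09, edgeR adjusted p = 0.0402). The summed RNA of the cardiomyocyte markers was also higher in CM-KO (above), but their median log2 fold change was -0.03, with 3 of 7 above 0. The part of the markers in the Hspb7 change was not tested. Footprints of 142, 213 and 216 CPM in CM-KO overlapped the 239, 216 and 225 CPM in WT. The ratio was 0.445 ± 0.0664 in CM-KO and 0.704 ± 0.0331 in WT (SD, n = 3 each), with no overlap. Its occupancy change of -0.64 (SE 0.18) missed the threshold (edgeR adjusted p = 0.157) and passed it at -0.66 with the pool as a block (adjusted p = 0.012). The RNA call was lost without CM-KO pool 2 (adjusted p = 0.169), CM-KO pool 3 (0.101), WT pool 2 (0.209), WT pool 3 (0.0534) or both CM-KO pools with Y-linked reads (0.192), at changes of 0.30 to 0.41. It was also lost under upper quartile scaling (0.0937), the stricter filter (0.0562), the replicate block (0.130), Afp as a covariate (0.141) or 12 libraries in one model (0.420), at changes of 0.33 to 0.39.

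Dnajb14, an ER-membrane J-protein that faces the cytosol and helps in the disposal of misfolded membrane proteins (chromosome 3, 137573436 to 137622320, plus strand), had 70.5, 74.2 and 72.2 CPM of RNA in CM-KO and 55.6, 58.4 and 60.2 CPM in WT. The change of 0.31 (SE 0.06, edgeR adjusted p = 0.0206) was lost on leaving out any 1 pool other than WT pool 3, at adjusted p of 0.0634 to 0.231, and without CM-KO pools 1 and 2 (0.31, adjusted p = 0.231). It was also lost with Afp as a covariate (0.0848), 12 libraries in one model (0.235) or the replicate block (0.0664). Footprints overlapped at 15.7, 17.5 and 14.4 CPM in CM-KO and 15.97, 17.95 and 16.004 CPM in WT. The ratios did not overlap (0.219 ± 0.0188 in CM-KO and 0.287 ± 0.0208 in WT; SD, n = 3 each), and the occupancy change of -0.37 (SE 0.15) was not called (adjusted p = 0.587).

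**Figure D2:**
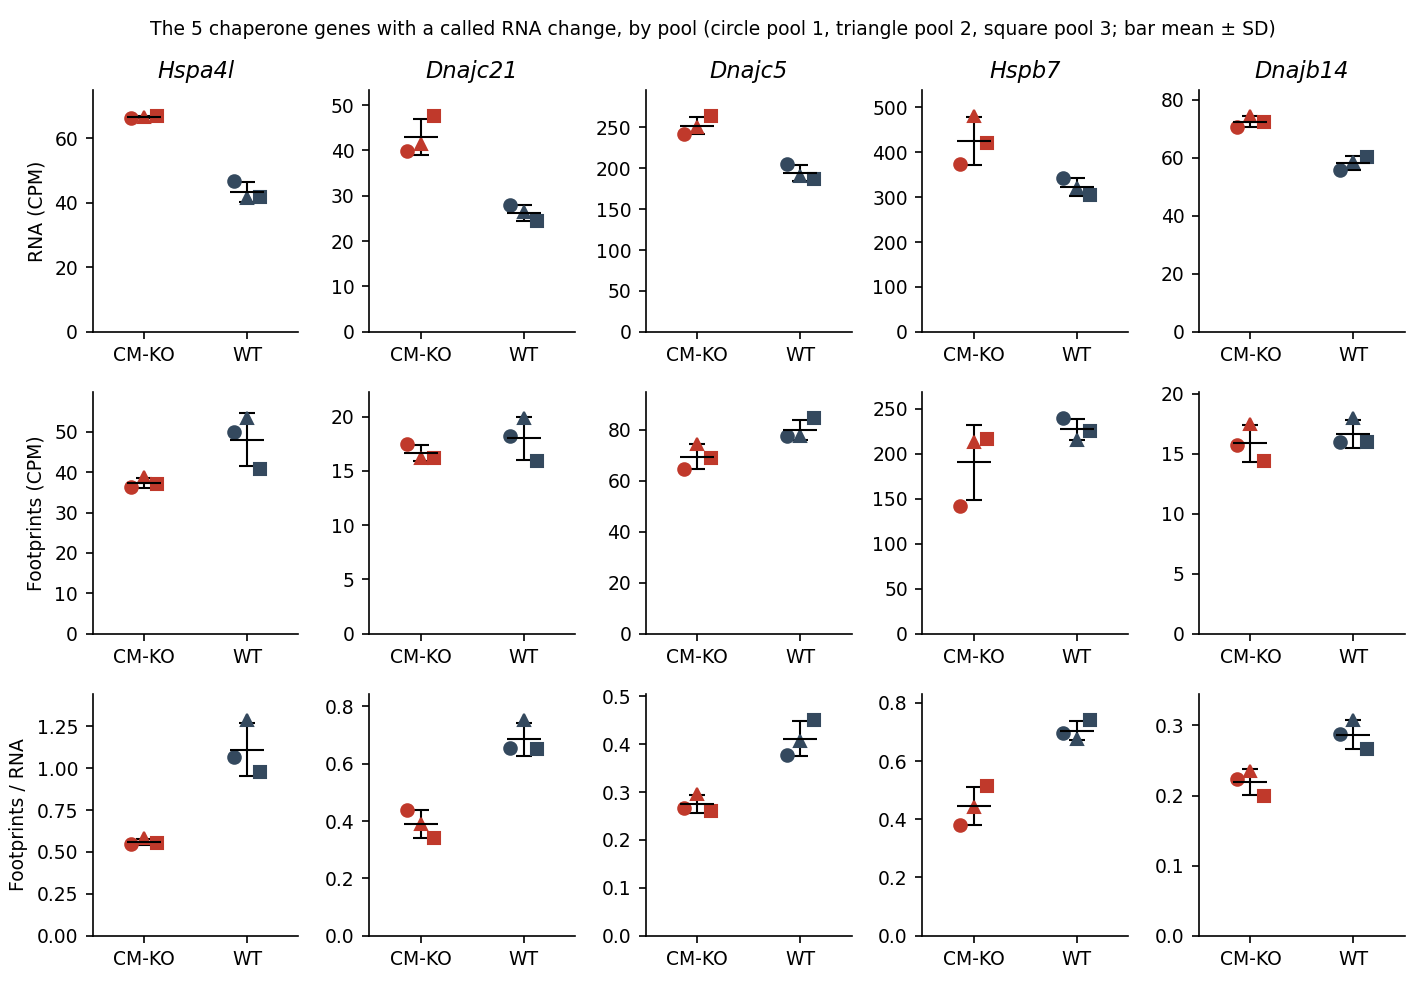
RNA (top row, CPM), footprints (middle row, CPM) and their ratio (bottom row) of the 5 genes with a called RNA change, CM-KO left and WT right in each panel, 1 point a pool with mean ± SD. All 5 genes have RNA above and a ratio below every WT pool, and Hspa4l and Dnajc5 also have footprints below every WT pool.

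All 5 genes with raised RNA had ratios below the WT range, and 3 of the 5 passed the occupancy test. Ratios lay below the WT range for 11% of all genes tested, whatever their RNA. That share among genes called higher in RNA was not counted. Among all 608 genes called higher in RNA and tested for occupancy, 18.3% were also called lower in occupancy. RNA is the denominator of the ratio, so the 2 measures share their RNA libraries. In the authors' deposited table the same 5 chaperone genes had a higher RNA at an adjusted p under 0.05, none changed in footprints, and 4 (Hspa4l, Dnajc21, Dnajc5 and Hspb7) had a lower occupancy.

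The 5 genes differed in their 5′ UTRs, the stretch that a ribosome scans before it starts. In the GENCODE canonical transcripts Dnajc21 had 249 bases with 86.3% GC and Dnajb14 249 bases with 84.7% GC, at percentiles 99.6 and 99.2 of coding genes for GC. Hspa4l (372 bases, 72.6% GC) and Dnajc5 (249 bases, 69.5% GC) stood at percentiles 79.5 and 69.1. Hspb7 had 1006 bases, at percentile 96.6 for length, but 58.9% GC, at percentile 29.4. Over all chaperone genes the median was 240 bases and 66.0% GC, next to 241 bases and 64.4% for 14633 coding genes. No 30-base word of the coding sequences of Hspa4l, Dnajc21, Dnajc5 and Dnajb14 occurs elsewhere in the genome, and 1.66% of those of Hspb7 do.

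The main cytosolic HSP70 and HSP90 genes showed no call in any comparison. Hsp90ab1, the constitutive HSP90, was the most heavily covered chaperone gene per length, at 2009 footprint CPM per coding kb in CM-KO and 1837 in WT. Its RNA lay at 1706, 1653 and 1664 CPM in CM-KO and 1669, 1632 and 1644 CPM in WT, and its footprints at 4169, 4583 and 4360 CPM in CM-KO and 3938, 4105 and 3942 CPM in WT. The CM-KO footprint pools lay above all WT pools, yet the change of 0.13 (95% confidence interval -0.06 to 0.32) was not called (edgeR adjusted p = 0.761). Hspa8, the constitutive HSP70, had changes of -0.01 in RNA and -0.05 in footprints. Hspa4, the HSP110 relative of Hspa4l, had 267 ± 16.3 CPM of RNA in CM-KO and 242 ± 9.04 in WT, with 566 ± 14.7 CPM of footprints in CM-KO and 567 ± 35.9 in WT (SD, n = 3 each), none called. Hsph1, also of this group, was likewise uncalled at 0.00 in RNA and 0.08 in footprints. Hsp90aa1, the inducible HSP90, had 79.7 ± 7.26 CPM of RNA in CM-KO and 79.8 ± 2.76 in WT, and Hspb1 (HSP27) had 29.4 ± 1.35 in CM-KO and 31.2 ± 3.05 in WT (SD, n = 3 each). Whether Hspa4l differs from its relatives in its response was not tested.

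Hspa1b, a heat-inducible HSP70, had few reads, with 112, 15 and 29 RNA counts in CM-KO and 130, 67 and 19 in WT. The first pool of each genotype was the highest, and the spread within a genotype exceeded the difference between genotypes (log2 fold change -0.42, SE 1.02, edgeR adjusted p = 0.944). Its neighbour Hspa1a, outside the tests, followed the same order with 86, 13 and 31 counts in CM-KO and 118 and 26 counts in WT pools 1 and 2. The 2 genes are near-identical, with 88.6% of the coding words of Hspa1b found elsewhere in the genome, so their split is uncertain. Dnajb1, the heat-inducible J-protein partner of HSP70, had 69.1, 69.4 and 75.5 CPM of RNA in CM-KO and 63.5, 57.3 and 55.8 CPM in WT, apart but not called (0.28, SE 0.07, edgeR adjusted p = 0.0615). It passed the threshold without WT pool 1 (0.34, adjusted p = 0.0415) and in DESeq2 (0.27, adjusted p = 0.0445). Its footprints were 64.7 ± 2.54 CPM in CM-KO and 67.1 ± 1.83 in WT (SD, n = 3 each), and its occupancy change of -0.32 was not called (edgeR adjusted p = 0.522).

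For 20 of the 75 chaperone genes RNA values separated the genotypes in every pool (26.7%, against 21.7% of all genes). CM-KO lay above WT for 15 and below for 5, against 13.3% and 8.42% of all genes. Besides the 5 called genes, those above were Cct4, Hspbap1 and 8 J-protein genes with uncalled changes of 0.20 to 0.32 (Dnaja2, Dnajb1, Dnajb2, Dnajb5, Dnajc2, Dnajc15, Dnajc25 and Dnajc27). Footprints were apart for 15 of 74 (20.3%, against 14.8%), with 10 above and 5 below, against 7.74% and 7.05% of all genes. Ratios were apart for 15 of 74 (20.3%, against 16% of all genes), with 5 above and 10 below, against 5.08% and 11%. At the low end stood Hspa12a, a distant HSP70 relative, with 13.4 ± 0.663 CPM of RNA in CM-KO and 16.5 ± 0.519 in WT, and 8.13 ± 1.62 CPM of footprints in CM-KO and 11.4 ± 1.26 in WT (SD, n = 3 each). Its changes of -0.30 in RNA (edgeR adjusted p = 0.101) and -0.51 in footprints (adjusted p = 0.431) were not called. Hspb2, a muscle small heat shock gene, lay at 70.7 ± 10.7 footprint CPM in CM-KO and 91.4 ± 3.996 in WT (-0.36, adjusted p = 0.308). It shares 62.1% of its exonic bases with Cryab on the opposite strand. The sources used here give no strand setting, and the 2 genes cannot be told apart where they overlap. The remaining extremes were Dnajb3 and Dnaja1 in footprints (0.36 and 0.26), Dnajc22 and Dnajc4 in RNA (-0.39 and -0.41), and Dnajc4, Hspa1l and Hspb3 in occupancy (0.55, 0.48 and 0.32), none of them called.

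None of the 8 CCT subunits was called, where 4.37% of all genes were called in RNA, 0.23% in footprints and 0.84% in occupancy. The RNA changes of the subunits ran from -0.08 to 0.17 and their footprint changes from 0.00 to 0.18. All 8 footprint changes lay above 0, as did 47.0% of those of all genes, but Cct5 stood at -0.01 under upper quartile scaling. Cct8 came nearest, with 913, 904 and 894 footprint CPM in CM-KO and 760, 844 and 791 CPM in WT, apart but not called (0.18, 95% confidence interval 0.01 to 0.35, edgeR adjusted p = 0.544). Cct2 and Cct6a likewise had every CM-KO footprint pool above WT, at 0.14 each. Occupancy changes ran from -0.12 for Cct4 to 0.14 for Tcp1, which encodes the alpha subunit. CM-KO pool 1 differed from its fellow pools: its CCT genes had a median deviation of 0.13 in RNA and -0.15 in the ratio, against -0.11 and 0.16 in CM-KO pool 2 and -0.02 and 0.09 in CM-KO pool 3. The WT pools lay at -0.02, -0.06 and 0.02 in RNA and at -0.06, 0.04 and -0.09 in the ratio.

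Since the CCT ring holds each subunit once per ring, the balance between subunits is of interest. Per kb of coding length, RNA was uneven, from 120 ± 12.3 CPM in CM-KO and 114 ± 3.69 in WT for Cct8 up to 217 ± 12.2 in CM-KO and 230 ± 7.86 in WT for Tcp1 (SD, n = 3 each). Footprints per coding kb ran from 362 ± 20.5 CPM in CM-KO and 356 ± 13.8 in WT for Cct3 up to 549 ± 5.58 in CM-KO for Cct8 and 521 ± 14.97 in WT for Cct5. The highest subunit exceeded the lowest by a factor of 1.81 ± 0.0843 in CM-KO and 2.02 ± 0.0639 in WT for RNA, and by a factor of 1.52 ± 0.103 in CM-KO and 1.47 ± 0.0203 in WT for footprints. The RNA figures depend on the length used. Per kb of whole transcript the factor was 2.72 ± 0.116 in CM-KO and 3.24 ± 0.0385 in WT, with Tcp1 again highest and Cct4 in place of Cct8 lowest. The coefficient of variation over the subunits was 18.1% in CM-KO and 22.2% in WT for RNA per coding kb, 37.2% in CM-KO and 40.0% in WT for RNA per transcript kb, and 13.8% in CM-KO and 13.3% in WT for footprints. Cct8, with the least RNA per coding kb, had the highest ratio of footprints to RNA (4.61 ± 0.453 in CM-KO and 4.27 ± 0.339 in WT), and Tcp1, with the most, had the lowest (2.41 ± 0.154 in CM-KO and 2.20 ± 0.135 in WT). The same subunits stood at these ends in both genotypes, a description of levels with no test. RNA is the denominator of the ratio, so a low RNA and a high ratio are not separate observations. Cct8 shares 13.5% of its exonic bases with Usp16 and Tcp1 13.8% with Acat3, among others, on the opposite strand, so their counts are uncertain there.

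**Figure D3:**
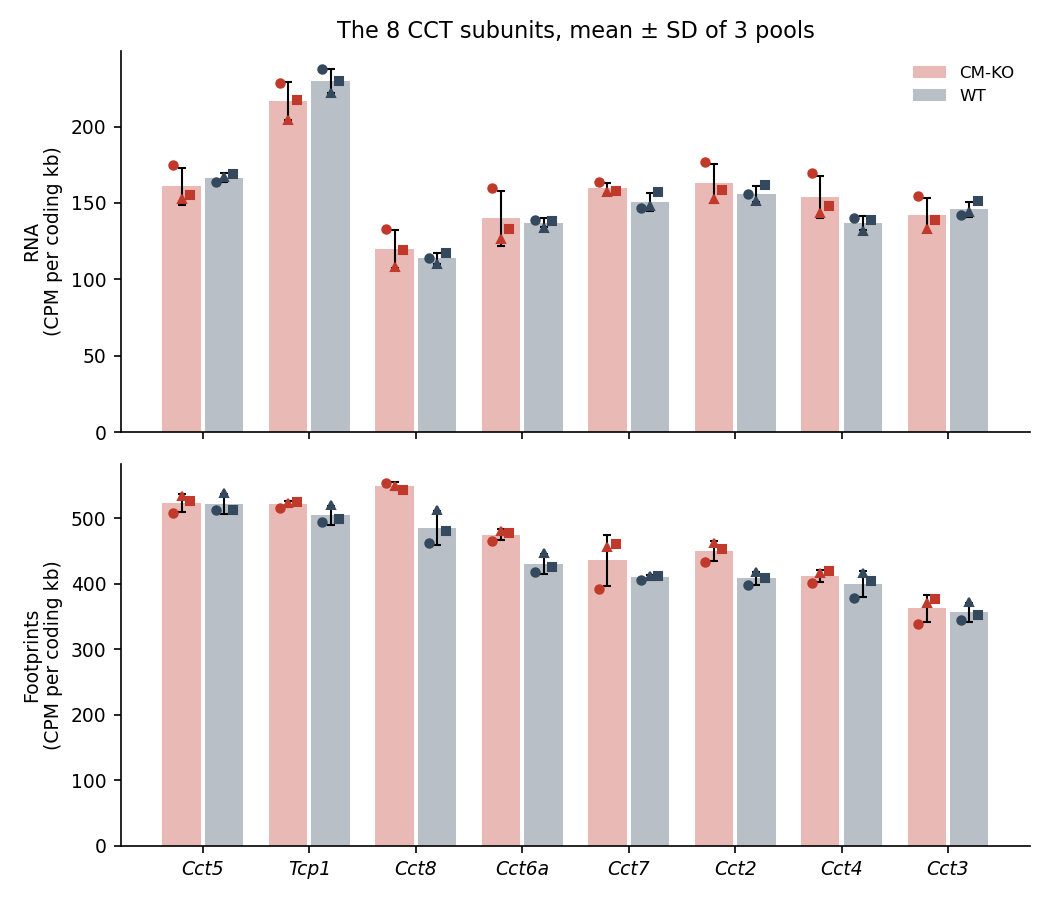
RNA (top) and footprints (bottom) of the 8 CCT subunits in CPM per kb of coding length, CM-KO left and WT right for each subunit, bars and error bars mean ± SD of 3 pools and 1 point a pool. Footprints span 356 to 521 in WT while RNA spans 114 to 230, and Cct8 has the lowest RNA bar in both genotypes.

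Of the 13 ER genes none was called in footprints or occupancy by edgeR or DESeq2, and Dnajb14 was the single RNA call. EdgeR called 4.37% of all genes in RNA, 0.23% in footprints and 0.84% in occupancy. In footprints 0 and in occupancy 1 of the 13 had an unadjusted p under 0.05, against 8.86% and 6.21% of all genes. Several ER genes, Hspa5, Hsp90b1 and Dnajc3 among them, are textbook targets of the unfolded protein response, which acts through the ER stress element in their promoters. This motif, CCAAT and CCACG with 9 bases between them on either strand, was found within 250 bases before to 50 bases after the annotated start for 3 of the 11 ER genes with a promoter entry, and for 0.137% of 27025 genes. WT pool 1 had the least RNA of the WT pools for the 3 ER genes with the motif. It was also lowest of the WT pools in the median of all 13 ER genes, and a link to the motif was not tested. The sequences of the 3 genes are RefSeq's, on GRCm38.p6, with the motif in capitals.
Hspa5, chr2:34772020-34772048, plus strand: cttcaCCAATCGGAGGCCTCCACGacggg
Hsp90b1, chr10:86705633-86705661, minus strand: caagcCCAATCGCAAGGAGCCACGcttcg
Dnajc3, chr14:118937822-118937850, plus strand: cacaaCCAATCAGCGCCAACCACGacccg

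Hspa5 RNA lay at 653, 592 and 575 CPM in CM-KO and at 582, 707 and 775 CPM in WT, and its footprints at 2574, 2968 and 2810 CPM in CM-KO and 2535, 3105 and 3320 CPM in WT. Hsp90b1 RNA lay at 586, 518 and 552 CPM in CM-KO and 536, 615 and 678 CPM in WT, with 3029, 3185 and 2946 footprint CPM in CM-KO and 2645, 3444 and 3562 in WT. In both genes WT pool 1 was the lowest WT pool and the CM-KO pools fell inside the WT range or near it. The changes of Hspa5 were -0.18 in RNA (95% confidence interval -0.41 to 0.05), -0.10 in footprints (-0.36 to 0.16) and 0.09 in occupancy (-0.31 to 0.49). Dnajb11, Dnajc10, Dnajb9 and Dnajc3, J-proteins of the ER lumen, had changes of -0.11 to 0.03 in RNA and -0.15 to 0.08 in footprints, none called. Hspa5 shares 44.2% of its annotated exonic bases with Rabepk on the opposite strand, so its counts are uncertain there. The share of its counts that falls in the overlap was not examined.

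The same pool pattern held for the group. The median deviation of the 13 ER genes from their own means was -0.11, 0.05 and 0.16 in WT pools 1, 2 and 3 for RNA and -0.18, 0.06 and 0.14 for footprints, whereas CM-KO pools 1, 2 and 3 lay at -0.01, -0.01 and -0.03 in RNA and -0.04, 0.10 and -0.03 in footprints. Markers of liver, gut and yolk sac summed to 138, 49.1 and 326 CPM of RNA in CM-KO pools 1, 2 and 3 and to 93.8, 373 and 436 CPM in WT pools 1, 2 and 3, so that WT pool 1 was the lowest WT pool in both measures. Among the CM-KO pools, pool 2 was lowest in the markers and highest in ER genes. With Afp, 1 of these markers, as a covariate the median ER change was -0.025 in RNA and 0.0376 in footprints, beside -0.0243 and -0.0039 without it. None of the 6 markers was at 0 in any pool, and their part in the spread of ER genes between pools was not tested. The pools of the genotypes overlapped in the median of ER, cytosolic and mitochondrial genes in all 3 measures. The 10 genes with other or unsure locations had RNA medians of 0.03 to 0.10 in CM-KO and -0.06 to 0.03 in WT, apart, and overlapped in footprints and ratio.

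**Figure D4:**
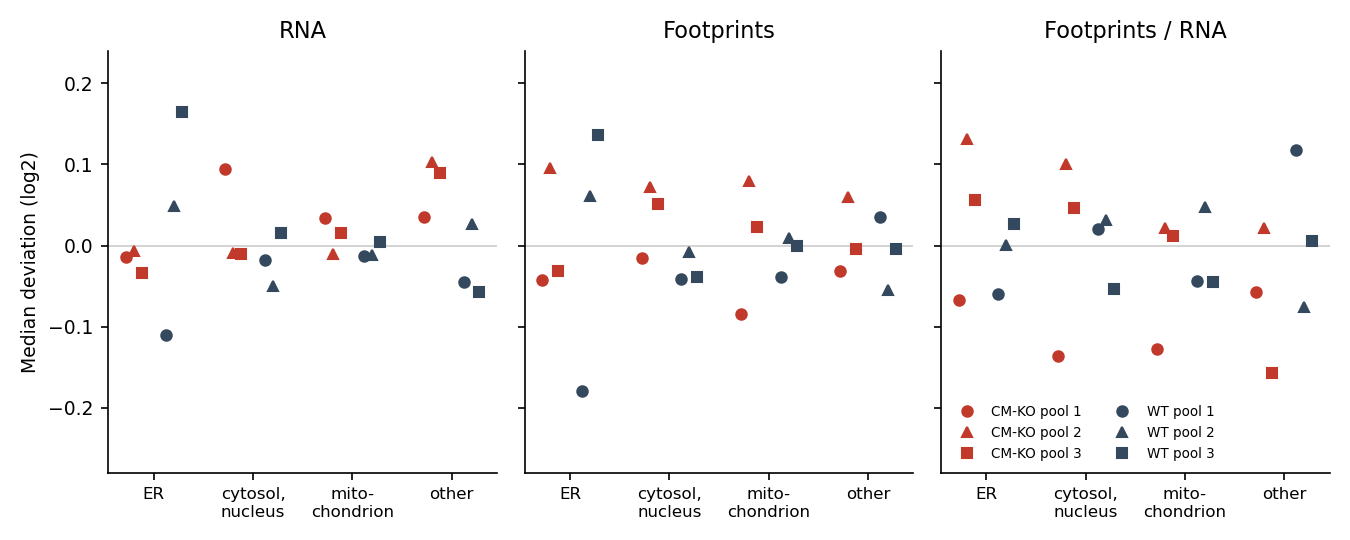
Median log2 deviation of the genes of each compartment from their own mean over 6 pools, for RNA, footprints and their ratio, CM-KO left and WT right, 1 point a pool. The ER genes of the 3 WT pools spread from -0.11 to 0.16 in RNA and from -0.18 to 0.14 in footprints, around the CM-KO pools.

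Between compartments the median changes lay close together. In RNA they were -0.02 for ER, 0.02 for cytosolic and 0.03 for mitochondrial genes, in footprints -0.0039, 0.05 and 0.04, and in occupancy 0.05, 0.03 and -0.01. The SD of the ER pool medians, pooled over both genotypes, was 0.10 in RNA, 0.13 in footprints and 0.08 in occupancy. For RNA it describes neither genotype. ER medians of the WT pools were far apart (-0.11, 0.05 and 0.16), while those of the CM-KO pools were close (-0.01, -0.01 and -0.03). The spread of a difference between compartments within the same pools was not computed. The SD is therefore no yardstick for such differences, and whether the compartments differ was not tested. The 10 genes with other or unsure locations stood further from ER, with medians of 0.12 in RNA and -0.12 in occupancy, and -0.02 in footprints. Leaving out CM-KO pool 1 moved the occupancy medians to 0.21 for ER, 0.19 for cytosolic and 0.15 for mitochondrial genes, with Hspa4l as the 1 remaining call.

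Of the 8 mitochondrial genes 0 were called in any comparison (DESeq2 called 0 as well). Over all genes the share called by edgeR was 4.37% in RNA, 0.23% in footprints and 0.84% in occupancy. An unadjusted p under 0.05 was reached by 2 of the 8 in RNA, 0 in footprints and 0 in occupancy, against 16.1%, 8.86% and 6.21% of all genes. Hspd1 (HSP60) had 169 ± 8.82 CPM of RNA in CM-KO and 171 ± 5.35 in WT, and 399 ± 25.2 CPM of footprints in CM-KO and 368 ± 19.5 in WT. Its partner lid Hspe1 (HSP10) had 77.1 ± 3.27 CPM of RNA in CM-KO and 84.1 ± 4.50 in WT, and 40.7 ± 5.01 CPM of footprints in CM-KO and 38.9 ± 3.39 in WT (SD, n = 3 each). Hspa9 footprints lay at 770, 827 and 772 CPM in CM-KO, above the 718, 753 and 715 CPM in WT, but the change of 0.12 was not called (edgeR adjusted p = 0.75). Dnaja3, the J-protein partner of Hspa9, had changes of -0.03 in RNA and -0.11 in footprints. Per coding kb for footprints and per transcript kb for RNA, Hspe1 exceeded Hspd1 by a factor of 1.43 ± 0.0614 in CM-KO and 1.54 ± 0.0422 in WT in RNA, and stood at a factor of 0.573 ± 0.110 in CM-KO and 0.588 ± 0.0212 in WT in footprints. Over 80% of the coding words of both genes occur elsewhere in the genome, where processed copies lie, so this pair is uncertain. Hspd1 and Hspe1 are divergent neighbours that share a promoter with a heat shock element (TTC, GAA and TTC with 2 bases between neighbours, either strand, 2 overlapping matches), shown on the Hspe1 strand with 1 match in capitals.
Hspe1 and Hspd1, chr1:55088051-55088079, plus strand: acggtccgTTCTAGAACCTTCcggaaggc
The element was found for 4 of 61 chaperone genes with a promoter entry (Hspd1, Hspe1, Hsph1 and Dnajb6) and for 0.662% of all genes. Hspd1 and Hspe1 share their matches. The inducible Hspa1b, Dnajb1 and Hsp90aa1 are not among the 4, having no match to this strict pattern or no promoter entry. None of the 4 was called in any comparison, and a heat shock response was not tested.

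Apart from genotype, the chaperone genes were set apart from one another by how heavily their RNA was covered by ribosomes. Over 13892 coding genes the median ratio of footprints to RNA was 0.736 in CM-KO and 0.751 in WT. It was 1.67 in CM-KO and 1.71 in WT for cytosolic chaperone genes, 1.05 in CM-KO and 1.01 in WT for ER genes, and 0.931 in CM-KO and 1.00 in WT for mitochondrial genes. Of 43 cytosolic genes 25 had a WT ratio among the highest 25% of coding genes, against 4 of 13 in the ER and 4 of 8 in the mitochondrion. As a share of all counts, the chaperone genes took 2.10 to 2.11% of footprints in CM-KO and 2.10 to 2.20% in WT, but 0.874 to 0.92% of RNA in CM-KO and 0.89 to 0.93% in WT.

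By family, all 8 CCT genes (2.20 to 4.27 in WT) and all 3 HSP90 genes, with Hsp90b1 at 5.26 ± 0.331 in WT, were among the highest 25%. The 13 HSP70 and HSP110 genes had a median of 2.13 in CM-KO and 1.956 in WT, led by Hspa5 with 4.61 ± 0.586 in CM-KO and 4.34 ± 0.0561 in WT (SD, n = 3 each). The 26 Dnajc genes had a median of 0.867 in CM-KO and 0.82 in WT, and Dnajc27 was lowest at 0.0907 ± 0.0125 in CM-KO and 0.101 ± 0.0193 in WT. Within the ER the span ran from Hsp90b1 down to Dnajb14, a lumenal chaperone and a membrane J-protein. The ratio is not scaled for UTR length, which lowers it where RNA reads fall in long UTRs that ribosomes do not cover.

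Near-identical copies touch some of these ratios. For 8 of the 74 genes (Dnajb6, Dnaja1, Hspa8, Hsp90aa1, Hspb1, Hspa1b, Hspe1 and Hspd1) over 50% of coding 30-base words occur elsewhere in the genome, where short footprints cannot be placed with certainty. Their ratios ranged from 0.182 to 4.67 in WT, with a median of 0.518, whereas the other 66 had a median of 1.09. Among all coding genes the medians were 0.413 for the 700 with over 50% of such words and 0.772 for the 10053 with none. Hspa8 is one case, with 95.03% of its words found elsewhere and a ratio of 0.512 ± 0.0433 in CM-KO and 0.526 ± 0.0261 in WT. The ratio of Hspa5 to Hspa8 per length was 0.72 in CM-KO and 0.81 in WT for RNA and 13.2 in CM-KO and 13.6 in WT for footprints, and the words shared by Hspa8 leave its footprint level uncertain.

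**Figure D5:**
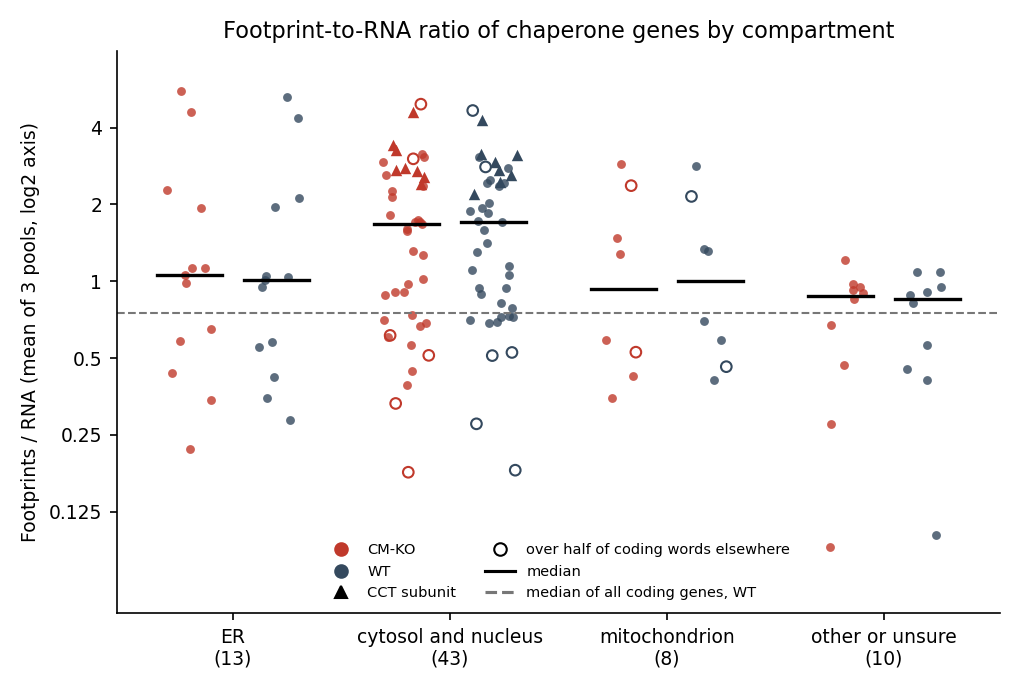
Mean ratio of footprint CPM to RNA CPM over 3 pools (log2 axis) for 74 chaperone genes by compartment, CM-KO left and WT right, bars at the medians. CCT subunits (triangles) sit from 2.20 to 4.27 in WT, above the dashed median of all coding genes at 0.751, and open circles mark genes with over 50% of coding words found elsewhere.

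Partners of the chaperones were counted in 4 lists, to be read beside the shares over all genes. Of all genes 4.37% were called in RNA, 0.23% in footprints and 0.84% in occupancy. An unadjusted p under 0.05 was reached by 16.1%, 8.86% and 6.21% of all genes. Among 25 co-chaperones and heat shock factors, RNA rose for Stub1 (0.35, SE 0.07, edgeR adjusted p = 0.0248), a ubiquitin ligase that tags chaperone clients, and for Bag6 (0.30, SE 0.07, adjusted p = 0.0295), which escorts stray membrane proteins. It fell for Cryab (-0.63, SE 0.10, adjusted p = 0.00567), the small heat shock protein alphaB-crystallin, at 106, 143 and 119 CPM in CM-KO and 196, 190 and 183 CPM in WT. Its change was -0.17 in footprints (edgeR adjusted p = 0.657) and 0.47 in occupancy (adjusted p = 0.281), neither called. The heat shock factor Hsf1 and its target Bag3 had uncalled RNA changes of -0.10 and -0.04. EdgeR and DESeq2 made no footprint or occupancy call in this list, where 1 of 25 genes in footprints and 3 in occupancy had an unadjusted p under 0.05.

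Another list held 16 genes. It covered prefoldin subunits, which hand actin and tubulin to CCT, other CCT helpers such as Pdcl3, and tubulin cofactors such as Tbca. None of the 16 was called in any comparison by edgeR or DESeq2. In RNA 4, in footprints 3 and in occupancy 3 of them had an unadjusted p under 0.05 (all genes: 16.1%, 8.86% and 6.21%). Their median change was -0.12 in RNA, 0.08 in footprints and 0.16 in occupancy, against 0.01, -0.01 and -0.01 over all genes, and 15 of the 16 had an occupancy change above 0, as did 47.6% of all genes. On leaving out 1 pool that median lay between 0.08, with WT pool 3 left out, and 0.30, with CM-KO pool 1 left out, and 13 to 15 of the 16 were above 0. Of 28 genes of ER folding and the unfolded protein response, none was called in any comparison by edgeR or DESeq2, and 4 in RNA, 1 in footprints and 0 in occupancy had an unadjusted p under 0.05. Calr and Hyou1, ER chaperones of other families, had RNA changes of -0.25 and -0.02, and Ddit3 (CHOP), a late marker of that response, one of 0.04. Of 15 genes of mitochondrial protein upkeep none was called by either tool, and 0 in RNA, 2 in footprints and 1 in occupancy had an unadjusted p under 0.05. Trap1, the mitochondrial HSP90, stood at 0.12 in RNA and 0.27 in footprints (edgeR adjusted p = 0.261).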

How the data were processed

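The labels' protocols name a service provider's own pipeline against mm39. Aligner, annotation release, strand setting and counted part of a transcript: not given in the sources used here. Per the file headers, the deposited table gives raw counts per gene, with no normalization, beside RPM values by the authors, which served only to check totals. The authors' log2 fold changes, occupancy ratios and p-values, as deposited, were read only for a comparison of calls. A pool's cells are blank where neither assay exceeds 10 counts.

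RNA and footprint counts were each tested 3 against 3 with edgeR 4.0.16 (R 4.3.3; TMM, filterByExpr with minimum count 10, robust quasi-likelihood F-test), and occupancy as the interaction of genotype and assay over 12 libraries. P-values were adjusted by Benjamini-Hochberg over all genes tested. With 3 against 3, an exact permutation test of 1 gene cannot go below 0.1. The alternatives included DESeq2 1.42.0. The scripts were tested on simulated data. Members and lists were chosen with earlier results of these data known. Named were all called members, fixed anchors of each group, and the 3 highest and 3 lowest changes per comparison. Hspb2, Dnajc18, Dnajc27, Dnajb6 and the uncalled genes with separate pools were named after their values were seen. Words, lengths and 5′ UTRs come from GENCODE vM39 on GRCm39. Promoters were found in RefSeq for 61 of 75 members. Both libraries of a pool share their hearts, and their deviations correlated at -0.03 to 0.63 over 8970 genes, so the occupancy fit with a pool block is given where it changes a call. Pools are separate sets of hearts.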

Additional observations from a re-analysis of the deposited data

How the results depend on the processing

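Over 16 alternatives per comparison no called change turned its direction. RNA calls over all genes numbered 750, and 294 with Afp as a covariate, 250 with all 12 libraries in one model, 367 with a replicate block of equal pool numbers and 126 without both CM-KO pools with Y-linked reads. Calls among chaperone genes in these fits were 2, 2, 2 and 1, and 8 in DESeq2, in place of 5. Footprint calls numbered 35, and 7 with Afp, 184 in DESeq2, 80 with 12 libraries in one model, 203 with the replicate block, 54 under the stricter filter, 60 with upper quartile scaling and 54 without both pools. Occupancy calls numbered 128, and 39 with Afp, 41 with RLE size factors, 221 with TMM within each assay (added after seeing the data), 226 with the pool as a replicate block, 283 under the stricter filter, 248 with upper quartile scaling and 5 without both pools. Chaperone genes called for occupancy were 3, and 1 with Afp, 1 with RLE and 0 without both pools.

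Leaving out 1 pool gave 207 to 783 RNA, 1 to 94 footprint and 9 to 113 occupancy calls, and 2 to 5 RNA and 0 to 2 occupancy calls among chaperone genes. Upper quartile scaling lowered the RNA medians to -0.0294 for all chaperone genes, -0.0117 for mitochondrial and 0.0822 for other genes. The stricter filter gave 0.0122 for mitochondrial RNA and, for other genes, 0.0302 in footprints and 0.0228 in occupancy. With 12 libraries in one model the footprint medians were 0.0882 for cytosolic and 0.0311 for other genes. Without both pools they were 0.179 (RNA, other), -0.0622 (footprints, other) and 0.138 (occupancy, cytosol). Leaving out 1 pool gave RNA medians of -0.0229 to 0.0768 (mitochondrion) and 0.0528 to 0.181 (other), footprint medians of 0.0383 to 0.102 (cytosol), -0.0159 to 0.114 (mitochondrion) and -0.0601 to 0.125 (other), and occupancy medians of 0.0201 to 0.207 (ER), -0.0355 to 0.190 (all), -0.065 to 0.192 (cytosol), -0.0843 to 0.150 (mitochondrion) and -0.165 to 0.0851 (other). The cause of these moves was not tested.

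The labels tie equal pool numbers of the genotypes to nothing shared. Deviations of equal numbers correlated at -0.14, 0.20 and -0.42 in RNA and at 0.42, 0.21 and 0.10 in footprints, where CM-KO pool 2 correlated more with WT pool 3 (0.31), so a pairing was not established and in footprints cannot be told. Of 1719 comparisons of named genes uncalled under both settings, 114 changed sign. Intervals cover the spread between pools, and few counts add to it for genes such as Hspa1l and Dnajb3.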
